A study of Mus musculus with 24 samples.

Results

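The genes described here are 9 transcripts of the arrestin-domain family and of FOXO signalling in mouse aorta: Arrdc1, Arrdc2, Arrdc3, Arrdc4, Txnip, Depp1 (listed under its older symbol 8430408G22Rik), Foxo1, Foxo3 and Irs2. They were chosen by gene symbol, with earlier results of these data known, from a table of 25941 genes. Each of the 9 had 1 row in the table, and all 9 passed the filter on low counts that left 14528 genes for testing. Because their differences between diets were part of why they were chosen, those differences are given below as a description, with standard errors and intervals but with no test.

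The study sequenced RNA from the thoracic aorta of wild-type C57BL/6 males, 10 to 12 weeks old, that had eaten 1 of 3 chows for 3 weeks. Chow held celecoxib at 100 mg/kg/day, rofecoxib at 50 mg/kg/day, or no drug in the control group. Both drugs are selective inhibitors of cyclooxygenase-2; celecoxib carries a sulfonamide where rofecoxib carries a methylsulfone. Each group had 8 libraries, which the labels call biological replicates. All 3 groups also received an intraperitoneal dose of interleukin-1β (10 ug/kg) 4 h before tissue was taken at zeitgeber time 11, so no group shows these genes without the cytokine. The doses of the drugs differed, and each drug is therefore set beside control rather than judged against the other at a matched dose.

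Alpha-arrestins are adaptor proteins at membranes that bring NEDD4 family ubiquitin ligases to receptors and transporters, which are then taken up and broken down. Txnip is the member of that family that binds thioredoxin and also limits glucose uptake, and its transcription follows glucose through the MondoA and ChREBP factors. Foxo1 and Foxo3 are forkhead transcription factors that insulin and growth factors keep out of the nucleus through AKT. Irs2 is the adaptor that carries the insulin receptor's signal towards AKT and is itself a known FOXO target, as are Txnip and Depp1, a regulator of autophagy. In the vessel wall Foxo1 is known for holding endothelial growth in check.

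The stretches upstream of the start sites are shown because several of these genes are known targets of the factors in the same set, and because they differ in which of the searched motifs they hold. The sequences are from RefSeq on GRCm38.p6, which is not the mm9 build of the count table, and all 9 genes matched an entry. Each is the 250 bases before the annotated start, written 5′ to 3′ on the gene's own strand, with matches to a searched motif in capitals. Txnip (chr3:96557707-96557956, plus strand) and Arrdc4 (chr7:68749239-68749488, minus strand) held matches, whereas Arrdc2 (chr8:70839721-70839970, minus strand) and Depp1 (chr6:116650434-116650683, plus strand), the genes furthest below control with rofecoxib and with celecoxib respectively, held none.
Txnip: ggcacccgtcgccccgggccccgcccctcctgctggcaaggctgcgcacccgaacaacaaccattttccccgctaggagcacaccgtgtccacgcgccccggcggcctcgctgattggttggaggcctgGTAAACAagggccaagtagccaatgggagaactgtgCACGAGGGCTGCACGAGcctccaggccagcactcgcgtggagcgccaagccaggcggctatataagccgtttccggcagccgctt
Arrdc4: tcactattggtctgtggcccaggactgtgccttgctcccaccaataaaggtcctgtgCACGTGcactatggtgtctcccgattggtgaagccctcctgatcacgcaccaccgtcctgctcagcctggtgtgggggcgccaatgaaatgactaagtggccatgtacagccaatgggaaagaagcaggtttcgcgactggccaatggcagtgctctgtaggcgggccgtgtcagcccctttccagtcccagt
Arrdc2: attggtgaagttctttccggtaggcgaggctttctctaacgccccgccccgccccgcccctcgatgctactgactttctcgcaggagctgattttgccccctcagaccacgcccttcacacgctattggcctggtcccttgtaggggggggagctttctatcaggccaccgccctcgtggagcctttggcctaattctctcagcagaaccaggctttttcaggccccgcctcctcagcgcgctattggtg
Depp1: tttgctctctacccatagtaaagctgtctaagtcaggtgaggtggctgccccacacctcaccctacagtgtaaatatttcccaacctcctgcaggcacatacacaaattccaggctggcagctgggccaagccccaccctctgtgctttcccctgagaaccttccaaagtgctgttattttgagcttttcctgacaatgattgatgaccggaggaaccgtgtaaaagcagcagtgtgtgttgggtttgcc
Txnip was the only one of the 9 genes with the forkhead motif GTAAACA on either strand, at 121 to 115 bases before its start. That motif was in 3.17% of the 32851 RefSeq windows of the same length. Txnip was also the only one with the paired E-box-like motif, CACGNG repeated in the same direction after 5 bases of any kind, as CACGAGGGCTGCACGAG at 85 to 69 bases before its start. This second motif was rare, being in 15 of the 32851 windows (0.0457%), and it did not overlap the forkhead match. The single E-box CACGTG, in 6.02% of windows, was upstream of Arrdc4 (193 to 188 bases before its start) and of Irs2 (44 to 39 bases). Neither the palindromic glucocorticoid response element, AGAACA and TGTTCT with 3 bases of any kind between them, in 0.00913% of windows, nor the cAMP response element TGACGTCA, in 1.55%, was in any of the windows of the 9 genes. A match describes letters only, and its absence says nothing of binding further away. Looser forms of a motif were not searched, so letters such as the gtaaata upstream of Depp1 were not counted.

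Levels are given in CPM, a gene's reads set against a library total that was adjusted by TMM scaling, and each library held between 21668798 and 21700121 counted reads. Counted per kilobase of exon in the control group, Txnip was the most abundant of the 9 at 185 CPM per kb. Arrdc3 followed at 66.3 and Arrdc2 at 31.7 CPM per kb. The ranges over the 8 control libraries did not overlap between Txnip, Arrdc3 and Arrdc2. Foxo3 at 21.9, Depp1 at 16.9 and Foxo1 at 14.4 CPM per kb came next, and neighbours from Arrdc2 down to Foxo1 overlapped in range. Irs2 stood at 10.7 CPM per kb, clear of Foxo1 above it and of the last pair below it. Arrdc1 at 3.59 and Arrdc4 at 3.43 CPM per kb were the scarcest and overlapped each other, so within 1 gene family the control level spanned from the scarcest to the most abundant transcript of the set.

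**Figure D1:**
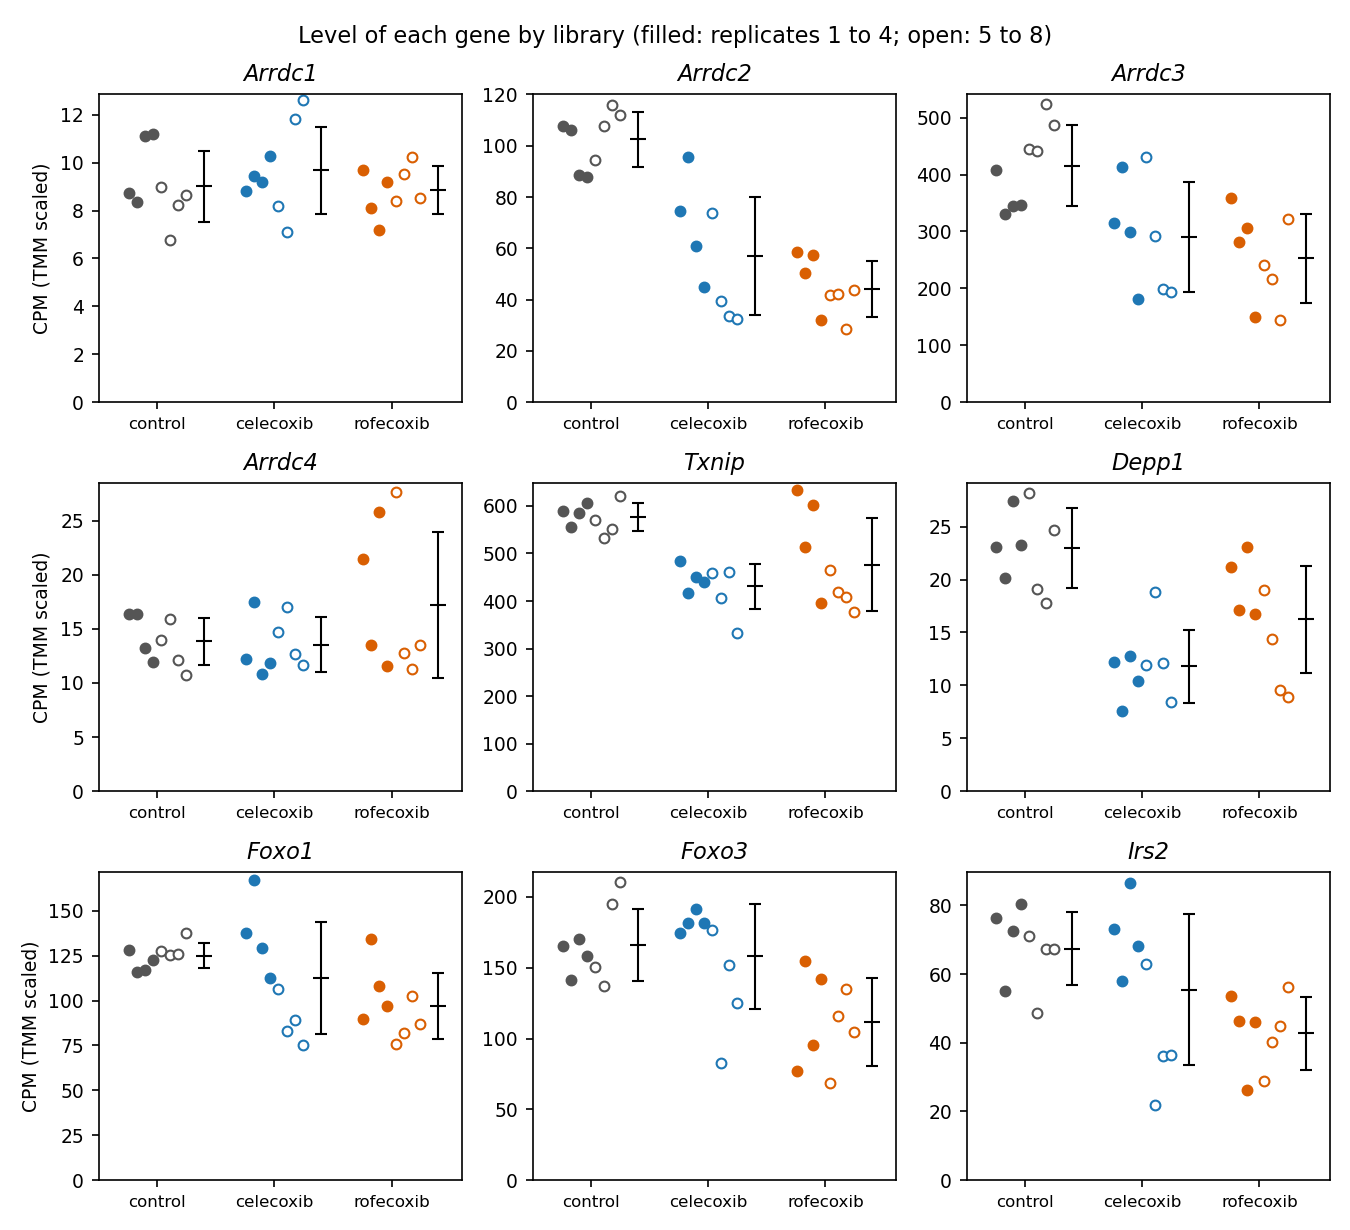
Level of each of the 9 genes in CPM (linear axis from 0) in each of the 24 libraries, by diet; filled circles are replicates 1 to 4, open circles replicates 5 to 8, and the black bars are the mean ± SD over 8 libraries. All 8 rofecoxib libraries lie below every control library for Arrdc2, and all 8 celecoxib libraries for Txnip, while Arrdc1 overlaps in all 3 groups.

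Arrdc2 (ENSMUSG00000002910, chr8:73358852-73363821 on mm9), an alpha-arrestin that glucocorticoids are known to induce in muscle, was the gene of the set with the lowest level under rofecoxib relative to control. Control libraries ran from 87.7 to 116 CPM with a median of 107. Celecoxib libraries ran from 32.3 to 95.6 CPM with a median of 53.1. Rofecoxib libraries ran from 28.3 to 58.6 CPM with a median of 43.0. Every rofecoxib library was below every control library, and 7 of 8 celecoxib libraries were, the exception being replicate 2. The log2 difference from control was -0.85 (SE 0.19, 95% interval -1.25 to -0.45) for celecoxib and -1.21 (SE 0.19, -1.61 to -0.81) for rofecoxib. Arrdc2 had the 4th lowest rofecoxib difference of the 13158 genes averaging 1 CPM or more, and the 131st lowest for celecoxib.

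Of the 9 genes, Arrdc2 was also the only 1 whose rofecoxib and control libraries did not overlap with rofecoxib lower. Such a gap was present for 0.509% of the 14528 genes tested. Txnip was the only 1 of the 9 with every celecoxib library below every control, against 0.145% of all genes tested. None of the 9 lay wholly above control, which 0.0895% of genes did for celecoxib and 0.275% for rofecoxib. These shares are background only, since the same contrasts had been seen when the genes were chosen.

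Arrdc3 (ENSMUSG00000074794, chr13:81022443-81035498), an alpha-arrestin known for binding beta-adrenergic receptors and for its effect on energy use by fat, was lower than control in both drug groups, with more overlap than Arrdc2. Control libraries ran from 330 to 524 CPM (median 425). Celecoxib libraries ran from 181 to 432 CPM (median 296), and 6 of 8 were below every control. Rofecoxib libraries ran from 144 to 358 CPM (median 261), and 7 of 8 were below every control. Celecoxib replicates 2 and 5 and rofecoxib replicate 1 were inside the control range, and the other drug libraries were below it by differing amounts. The SD was 71.2 CPM in control, 96.9 CPM with celecoxib and 78.6 CPM with rofecoxib. The log2 differences were -0.52 (SE 0.20) for celecoxib and -0.72 (SE 0.20) for rofecoxib.

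The remaining members of the Arrdc family had levels near control. Arrdc1 (ENSMUSG00000026972, chr2:24780670-24790974), known for driving the budding of small vesicles from the cell surface, had a mean of 9.01 ± 1.48 CPM in control, 9.68 ± 1.83 with celecoxib and 8.86 ± 0.986 with rofecoxib (SD, n = 8 each). Its log2 differences were 0.10 (SE 0.11) and -0.02 (SE 0.11), and that with rofecoxib changed sign when scaled by library size alone (0.04). Arrdc4 (ENSMUSG00000042659, chr7:75881729-75894329), the closest relative of Txnip in the set and likewise induced by glucose, ran from 10.8 to 16.4 CPM in control and from 10.8 to 17.5 CPM with celecoxib. With rofecoxib it ran from 11.3 to 27.7 CPM around a median of 13.5. Replicates 1, 3 and 5 of the rofecoxib group stood above every control while the other 5 libraries were within the control range. The mean rofecoxib difference of 0.31 (SE 0.18, -0.05 to 0.68) therefore rested on 3 libraries, and without replicate 5 it was 0.18.

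Txnip (ENSMUSG00000038393, chr3:96361678-96366008) was held within a narrow range in control aortas, from 533 to 620 CPM with a median of 578. Celecoxib libraries ran from 332 to 485 CPM (median 445). Rofecoxib libraries ran from 377 to 634 CPM (median 442). The celecoxib libraries were all below control. The rofecoxib group was spread more widely, with 6 libraries below every control, replicate 1 above every control and replicate 3 inside the control range. The log2 differences were -0.42 (SE 0.10, -0.62 to -0.22) for celecoxib and -0.27 (SE 0.10, -0.47 to -0.08) for rofecoxib. The fitted level was 74.8% of control with celecoxib and 82.7% with rofecoxib.

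Depp1 (ENSMUSG00000048489, chr6:116600500-116603067), the FOXO-induced autophagy regulator, had its lowest levels with celecoxib. Control libraries ran from 17.8 to 28.1 CPM (median 23.2). Celecoxib libraries ran from 7.54 to 18.8 CPM (median 12.0). Rofecoxib libraries ran from 8.94 to 23.1 CPM (median 16.9). In the celecoxib group 7 of 8 libraries were below every control, and in the rofecoxib group 5 of 8 were. The log2 difference was -0.96 (SE 0.18, -1.34 to -0.58) for celecoxib, the 82nd lowest of 13158 genes, and -0.50 (SE 0.18, -0.87 to -0.12) for rofecoxib. Depp1 overlaps Rassf4 on the genome, and since no source used here gives the strand setting of the counting, reads of the pair cannot be told apart with certainty. Rassf4 had 6264 reads in all against 8829 for Depp1, and its differences were -0.28 (SE 0.18) for celecoxib and 0.39 (SE 0.18) for rofecoxib. Smaller overlaps, of at most 159 reads in total, involved Arrdc3, Txnip and Irs2.

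The FOXO factors themselves were lower with rofecoxib and near control on average with celecoxib. Foxo1 (ENSMUSG00000044167, chr3:52072057-52154233) ran from 116 to 138 CPM in control (median 126). With celecoxib it ran from 75.1 to 167 CPM (median 110), and with rofecoxib from 75.7 to 134 CPM (median 93.5). The control libraries were tight, whereas celecoxib libraries lay on both sides of them, with 5 below and 1 above every control, and 7 of 8 rofecoxib libraries were below. The log2 difference was -0.15 (SE 0.13, -0.42 to 0.12) for celecoxib and -0.37 (SE 0.13, -0.64 to -0.09) for rofecoxib.

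Foxo3 (ENSMUSG00000048756, chr10:41901445-41996763) ran from 137 to 211 CPM in control (median 162). With celecoxib it ran from 82.6 to 191 CPM (median 175), and with rofecoxib from 68.9 to 155 CPM (median 110). Only 2 celecoxib libraries were below every control, while 6 rofecoxib libraries were. The log2 difference was -0.07 (SE 0.16, -0.41 to 0.27) for celecoxib and -0.57 (SE 0.16, -0.91 to -0.23) for rofecoxib.

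Irs2 (ENSMUSG00000038894, chr8:10986778-11008660) had its widest spread with celecoxib. Control libraries ran from 48.7 to 80.4 CPM (median 69.3), celecoxib libraries from 21.98 to 86.6 CPM (median 60.6) and rofecoxib libraries from 26.4 to 56.2 CPM (median 45.4). The celecoxib libraries separated into 5 at or above 58.1 CPM and 3, replicates 6, 7 and 8, at or below 36.4 CPM. In the rofecoxib group 6 of 8 libraries were below every control. The log2 difference was -0.28 (SE 0.21, -0.71 to 0.15) for celecoxib and -0.65 (SE 0.21, -1.09 to -0.22) for rofecoxib.

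Set directly against each other at their different doses, the drug groups were furthest apart, over all libraries, in Foxo3 and Depp1. Over all genes tested, edgeR called 4.89% between the drug groups, a count that was 0 under several alternatives. The celecoxib minus rofecoxib difference was 0.50 (SE 0.16, 0.16 to 0.84) for Foxo3 and -0.46 (SE 0.18, -0.84 to -0.08) for Depp1. The Depp1 difference was -0.86 in replicates 1 to 4 and -0.01 in replicates 5 to 8, and -0.19 with fat and muscle levels in the model, whereas Foxo3 had 0.63, 0.34 and 0.50. For the other 7 genes the interval over all libraries included 0, the widest being that of Irs2, from -0.06 to 0.81. Both drugs were measured against the same 8 control libraries, so the likeness of their differences from control was not tested.

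**Figure D2:**
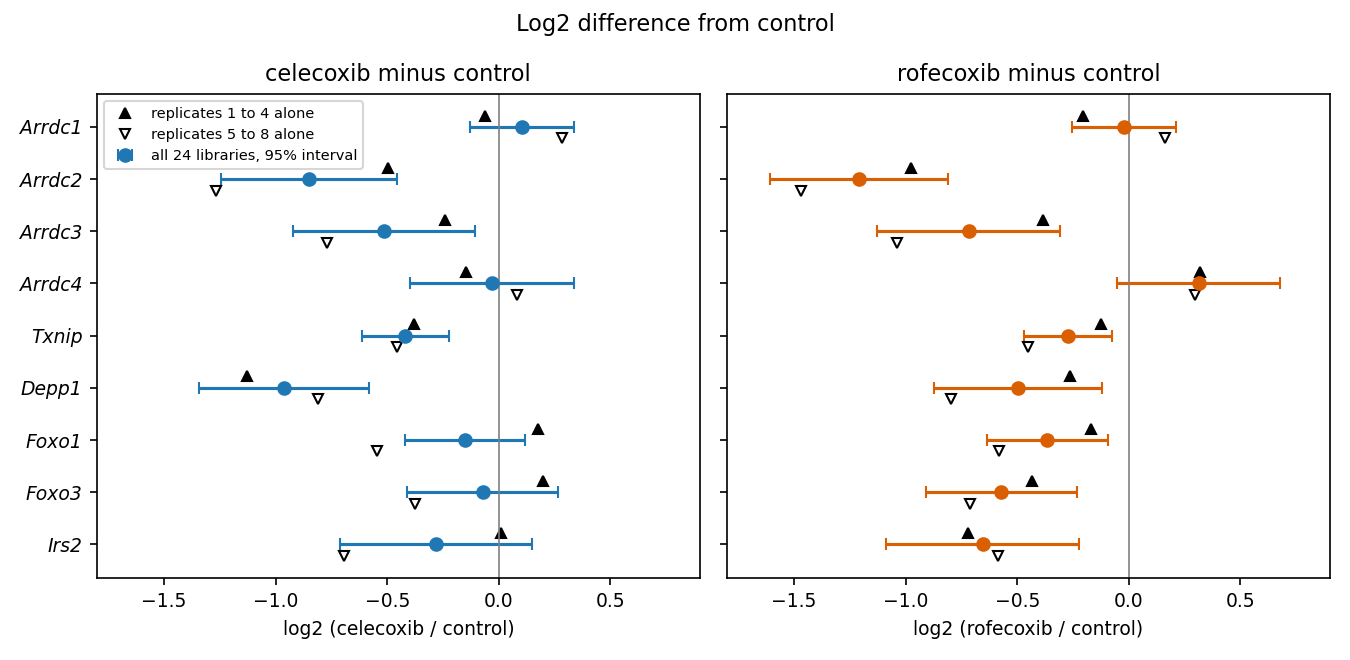
Log2 difference from control of each gene for celecoxib (left) and rofecoxib (right); circles with bars are the estimate and 95% interval over all 24 libraries, filled triangles the estimate from replicates 1 to 4 alone and open triangles that from replicates 5 to 8 alone. Foxo1, Foxo3 and Irs2 under celecoxib have triangles on different sides, from 0.18 to -0.55 for Foxo1, whereas Arrdc2, Txnip and Depp1 lie left of 0 for each set and both drugs.

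Libraries numbered 1 to 4 and 5 to 8 had differed in an earlier look at these data, and the labels give those numbers no meaning beyond naming replicates. The averages near control for Foxo1, Foxo3 and Irs2 under celecoxib joined sets whose mean differences were unlike, given here without standard errors. In replicates 1 to 4 the celecoxib difference was 0.18 for Foxo1, 0.20 for Foxo3 and 0.01 for Irs2. In replicates 5 to 8 it was -0.55 for Foxo1, -0.37 for Foxo3 and -0.70 for Irs2. Celecoxib replicate 5 did not follow this division in every gene. Its Foxo3 (177 CPM) and Irs2 (63.1 CPM) levels lay within the range of celecoxib replicates 1 to 4, and its Arrdc3 level (432 CPM) was the highest of the celecoxib group. Arrdc2 was lower in both sets, by -0.50 and -1.27 with celecoxib and by -0.98 and -1.47 with rofecoxib. Depp1 with celecoxib (-1.13 and -0.81) and Txnip with celecoxib (-0.38 and -0.46) were likewise lower in each. With rofecoxib the sets differed more, at -0.27 and -0.80 for Depp1 and -0.12 and -0.45 for Txnip. For Arrdc3 the values were -0.24 and -0.77 with celecoxib and -0.38 and -1.04 with rofecoxib. What separates the libraries numbered 5 to 8 was not tested.

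The tissue held other cell types in amounts that varied between libraries. Smooth muscle is the labelled tissue's main cell type, and its 10 markers summed to between 29310 and 39920 CPM in control. The sums ran from 32530 to 45940 CPM with celecoxib and from 28620 to 42740 CPM with rofecoxib. Their mean log2 level differed from control by 0.03 with celecoxib and -0.19 with rofecoxib. Its SD was 0.148 in control, 0.143 with celecoxib and 0.152 with rofecoxib. The mean log2 level of 10 general adipocyte markers differed from control by -0.15 with celecoxib and 0.80 with rofecoxib. For 8 brown adipocyte markers the values were -0.50 and 0.77, and summed levels ran from 203 to 1225 CPM in control, 107 to 583 with celecoxib and 383 to 1924 with rofecoxib. Macrophage markers (10 genes) differed by -0.21 and 0.34, neutrophil markers (9 of 10 tested, all but Ly6g) by -0.75 and 0.43, Schwann cell markers (10 genes) by -0.53 and 0.57 and endothelial markers (10 genes) by 0.10 and 0.44. Only 5 of 10 skeletal muscle markers passed the filter, and no marker lacked reads in every library. In whole tissue fewer cells of a type and less RNA per cell cannot be told apart.

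When marker levels of general and brown adipocytes and of skeletal muscle entered the model, most differences of the set were close to those above, and the rofecoxib values of Depp1 and Txnip were further from 0. Arrdc2 was at -0.96 for celecoxib and -1.08 for rofecoxib, and Arrdc3 at -0.69 and -0.54. The order of the drugs was thus reversed for Arrdc3, whose celecoxib minus rofecoxib difference was 0.20 without these covariates and -0.15 with them. Depp1 was at -0.96 and -0.77, and Txnip at -0.47 and -0.41. The rofecoxib differences of Foxo1 (-0.35), Foxo3 (-0.50) and Irs2 (-0.61) were also close to those without covariates. Smooth muscle levels were not in that model. Of 99 correlations between a gene of the set and a marker or glucocorticoid list level, no cell type marker level passed an adjusted permutation p of 0.05; the nearest was Arrdc3 with brown adipocyte markers (r = -0.62, adjusted permutation p = 0.0688).

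How the genes varied from library to library within a diet was not a difference between diets, although drug libraries that lie further below control also contribute to it. Log2 CPM was centred on each group's mean, and the 36 pairs were tested over 24 libraries by shuffling libraries within groups in a two-sided permutation test of 100000 resamples, with Benjamini-Hochberg adjustment over the 36. By Pearson's r, 7 pairs passed, 5 of them positive and 2 negative. By Spearman's rho 3 passed, all among the 7. Over all pairs of tested genes, 7.88% had an r at least as far from 0 as the weakest of the 7, so a value of that size is common in these libraries.

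**Figure D3:**
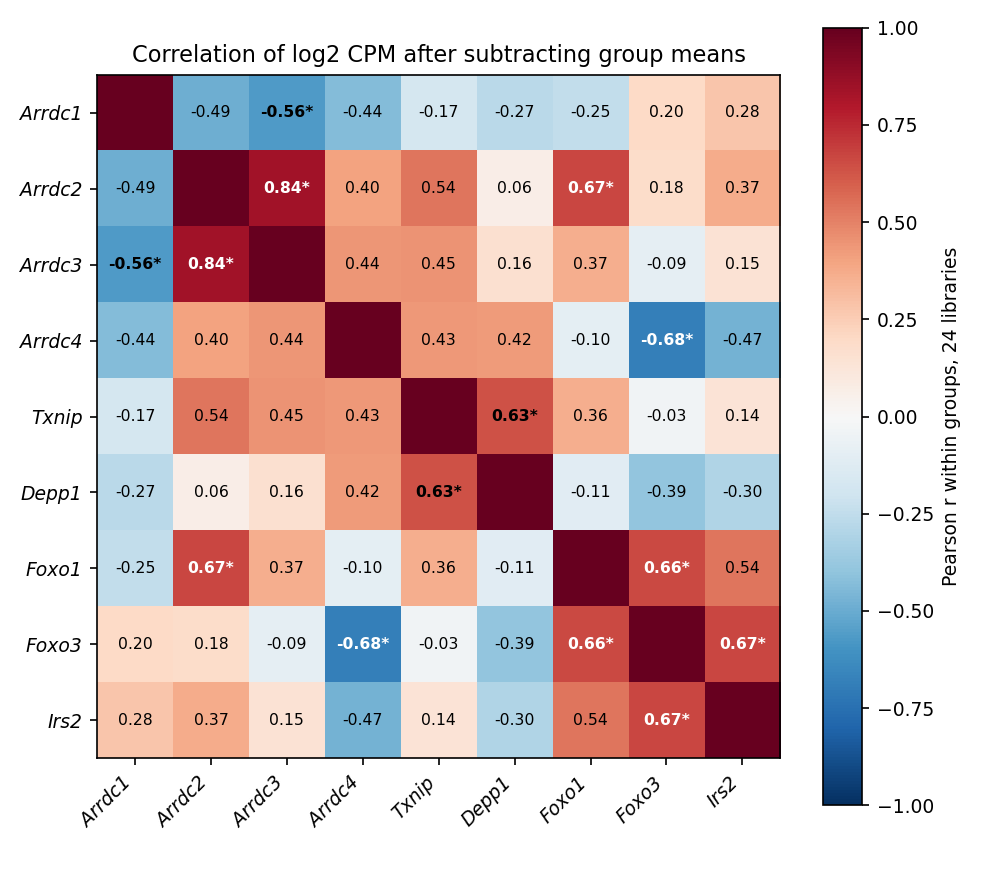
Pearson r of log2 CPM between the 9 genes over 24 libraries after the mean of each diet group was subtracted; colour runs from -1 to 1, and bold values with an asterisk have a permutation p under 0.05 after Benjamini-Hochberg adjustment over 36 pairs. Arrdc2 with Arrdc3 has the highest value at 0.84 and Arrdc4 with Foxo3 the lowest at -0.68.

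Arrdc2 and Arrdc3 moved together most closely. Their r was 0.84 and their rho 0.85, each with a permutation p of 2e-05 and an adjusted p of 0.00072. The correlation was positive in each diet, at 0.67 in control, 0.85 with celecoxib and 0.93 with rofecoxib. It was 0.82 without the 2 libraries farthest from the median of Arrdc2. Among 14527 other genes, Arrdc3 ranked 17th from the top in its correlation with Arrdc2. The pair passed under all 27 alternatives run, which left out each library in turn or changed the scale, the scaling or the means subtracted.

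The FOXO factors also varied together, and Arrdc4 varied against Foxo3. Foxo1 and Foxo3 had an r of 0.66 (permutation p = 0.00158, adjusted p = 0.0168) and a rho of 0.68 (permutation p = 0.00084, adjusted p = 0.0151). The r was 0.58 in control, 0.71 with celecoxib and 0.67 with rofecoxib, and 0.69 without the 2 farthest libraries. It missed the threshold when the means of replicates 1 to 4 and 5 to 8 were subtracted separately (r = 0.57, adjusted permutation p = 0.111) and without celecoxib replicate 3 (adjusted permutation p = 0.0558).

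Arrdc4 and Foxo3 had an r of -0.68 (permutation p = 0.00095, adjusted p = 0.0168) and a rho of -0.66 (permutation p = 0.00227, adjusted p = 0.0272). The r was -0.79 in control, -0.39 with celecoxib and -0.86 with rofecoxib, and -0.63 without the 2 farthest libraries. This pair passed under all 27 alternatives by r. The 3 rofecoxib libraries with Arrdc4 above every control had the 3 lowest Foxo3 levels of that group, as the plot of within-group deviations shows.

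The other 4 pairs passed by r only. Foxo3 and Irs2 had an r of 0.67 (adjusted permutation p = 0.0168) but a rho of 0.46 (adjusted permutation p = 0.145), and r was 0.42 without the 2 farthest libraries, so the relation by r rested in part on those. The pair missed the threshold without celecoxib replicate 6 (r = 0.49, adjusted permutation p = 0.0817), without celecoxib replicate 8 (r = 0.65, adjusted permutation p = 0.0511) and with the means of each replicate set subtracted (r = 0.60, adjusted permutation p = 0.114). Arrdc2 and Foxo1 had an r of 0.67 (adjusted permutation p = 0.0433), 0.90 with celecoxib and 0.14 with rofecoxib, and passed in 12 of 27 alternatives. Txnip and Depp1 had an r of 0.63 (adjusted permutation p = 0.0433) and passed in 14 of 27. Arrdc1 and Arrdc3 had an r of -0.56 (adjusted permutation p = 0.0367) and passed in 19 of 27.

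Arrdc2 followed the level of glucocorticoid-induced genes inside the diet groups. The level was the mean log2 CPM of 16 such genes, none of them in the set of 9, and 4 of the 16 were also in the list of FOXO targets. This list and the 9 genes were chosen with earlier results of these data known, so the p-values here are no independent test. The level had an SD of 0.0526 in control, 0.246 with celecoxib and 0.18 with rofecoxib, so drug libraries held most of its variation. Unlike the pairs of genes above, these correlations were not rerun with each library left out or with the means of each replicate set subtracted. With that level Arrdc2 had an r of 0.86 (permutation p = 3e-05, adjusted over 99 correlations 0.00297) and a rho of 0.90 (permutation p = 1e-05, the smallest the resamples can give, adjusted 0.00099). The r was 0.40 in control, 0.95 with celecoxib and 0.75 with rofecoxib, and 0.89 without the 2 farthest libraries. Only 2 of the 14512 tested genes outside the list had a higher r with it. Foxo1 followed at an r of 0.79 (adjusted permutation p = 0.0233) and a rho of 0.62 (adjusted permutation p = 0.184). Its r was 0.67 without the 2 farthest libraries. For Foxo1, 18 genes had a higher r, and 0.138% of the 14512 genes were at least that far from 0. Arrdc3 (r = 0.69, adjusted permutation p = 0.0688) and Txnip (r = 0.62, adjusted permutation p = 0.0778) did not pass, and Depp1 had an r of 0.21.

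**Figure D4:**
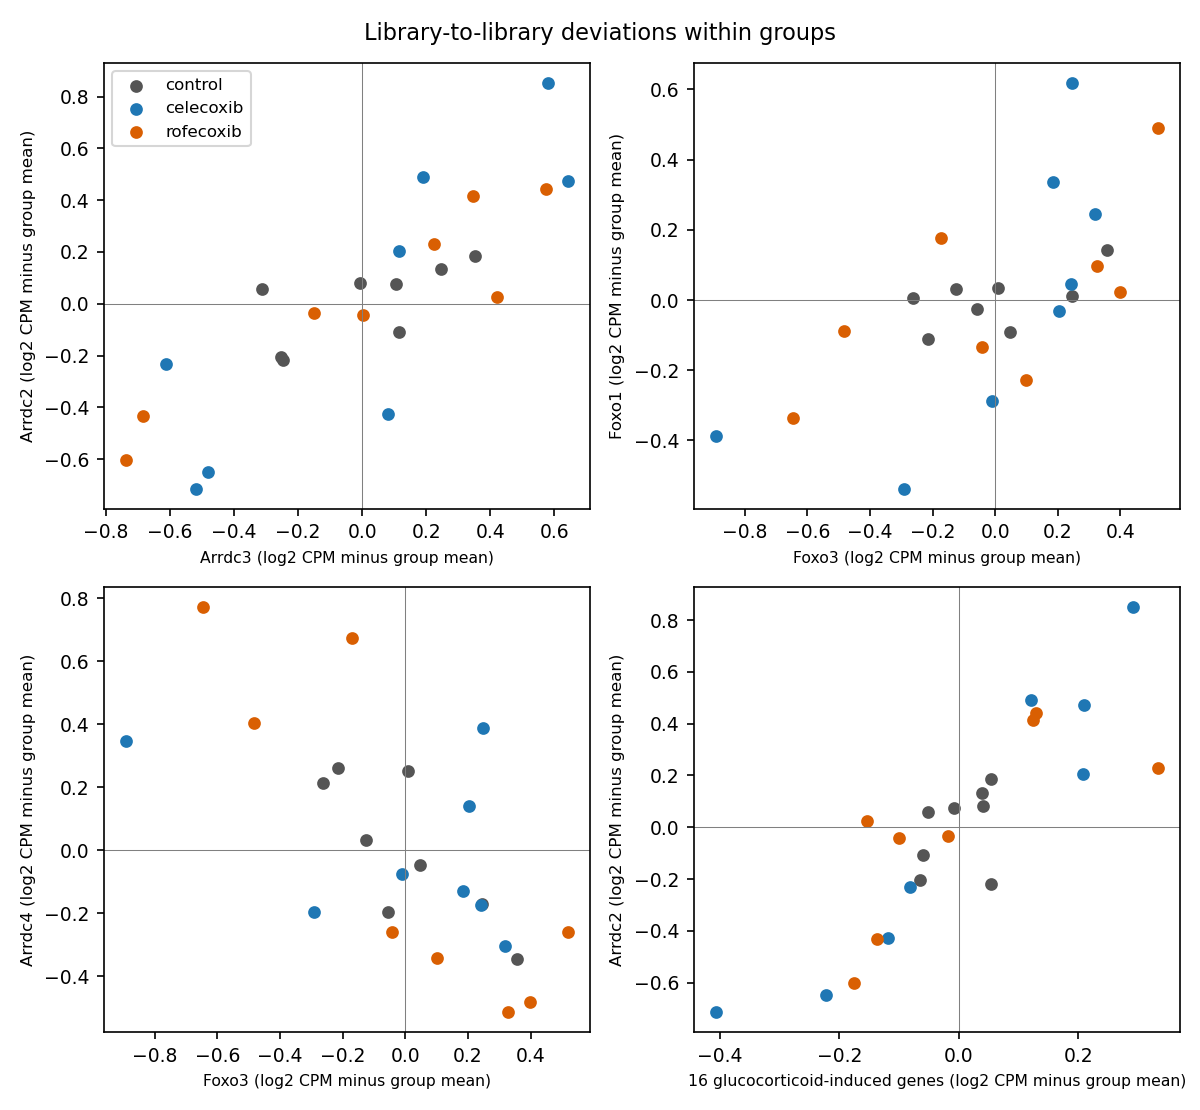
Deviation of log2 CPM from the diet group's mean in each of the 24 libraries, coloured by diet: Arrdc2 against Arrdc3, Foxo1 against Foxo3, Arrdc4 against Foxo3, and Arrdc2 against the mean of 16 glucocorticoid-induced genes. The panels of Arrdc2 and of Foxo1 rise (r of 0.84, 0.66 and 0.86) and the Arrdc4 panel falls (r of -0.68).

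The glucocorticoid-induced genes were themselves lower in both drug groups. Their mean level differed from control by -0.44 with celecoxib and -0.59 with rofecoxib on the log2 scale. In edgeR's quasi-likelihood test, adjusted over 14528 genes by Benjamini-Hochberg, 2 of the 16 fell with celecoxib and 8 fell with rofecoxib, and none rose. Over all genes tested, 0.0344% were called for celecoxib (0.0275% lower, 0.00688% higher) and 6.94% for rofecoxib (3.06% lower, 3.88% higher). This list and the gene lists below were chosen with earlier results of these data known. Their counts and medians are therefore a description beside all genes and no independent test. Dusp1, a phosphatase that turns off MAP kinases, fell by 0.45 with celecoxib (SE 0.08, edgeR adjusted p = 0.0434, kept in 7 of 24 fits that each left out 1 library) and by 0.62 with rofecoxib (SE 0.08, edgeR adjusted p = 0.000464, kept in 24). Errfi1, an inhibitor of the EGF receptor, fell by 0.94 with rofecoxib (SE 0.22, edgeR adjusted p = 0.0206). The median of the 16 was -0.41 for celecoxib and -0.57 for rofecoxib, against 0.00 and 0.02 for all genes. In the model with fat and muscle levels, 2 of the 16 fell in each drug group.

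Genes that FOXO factors are known to drive were called lower with rofecoxib in part, and most did not pass. Of 43 tested targets, 7 fell with rofecoxib (Ccng2, Cdkn1a, Bcl6, Klf15, Klf2, Sesn3 and Ddit4) and none rose. Of all genes tested, 3.06% were called lower with rofecoxib and 3.88% higher. With celecoxib only Ddit4 fell and none rose, beside 0.0275% of all genes tested called lower and 0.00688% higher. The median over the 43 was -0.07 for celecoxib and -0.02 for rofecoxib, beside 0.00 and 0.02 for all genes. Including those called, 16 of the 43 had an unadjusted p under 0.05 with rofecoxib and 7 with celecoxib, beside 4103 and 1969 of the 14528 genes tested. Fits on replicates 1 to 4 alone called none of the 43 for either drug, against 4 lower for rofecoxib in replicates 5 to 8. In the model with fat and muscle levels 3 of the 43 fell with rofecoxib, and DESeq2 called 10 lower and 2 higher.

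Ddit4, an inhibitor of mTORC1 that stress, glucocorticoids and FOXO factors induce, ran from 67.1 to 107 CPM in control, from 19.7 to 49.2 CPM with celecoxib and from 22.9 to 71.1 CPM with rofecoxib. It fell by 1.36 with celecoxib (SE 0.22, edgeR adjusted p = 0.0200) and by 0.998 with rofecoxib (SE 0.22, edgeR adjusted p = 0.0129). Klf2, a transcription factor that blood flow induces in endothelium, fell by 0.73 with rofecoxib (SE 0.12, edgeR adjusted p = 0.00327), from 83.3 ± 9.37 to 50.3 ± 8.99 CPM (SD, n = 8 each), and every rofecoxib library was below every control. Bcl6, a transcriptional repressor, fell by 0.61 (SE 0.12, edgeR adjusted p = 0.00627), again with no overlap. Sesn3, which restrains mTORC1 and was the scarcest of these at 7.49 ± 0.954 CPM in control (SD, n = 8), fell by 0.68 with rofecoxib (SE 0.13, edgeR adjusted p = 0.00704). These 4 calls with rofecoxib were kept in all 24 fits that left out 1 library, and the celecoxib call of Ddit4 in 20. Of the 7 targets that fell with rofecoxib, Ddit4 and Cdkn1a were also in the glucocorticoid list.

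**Figure D5:**
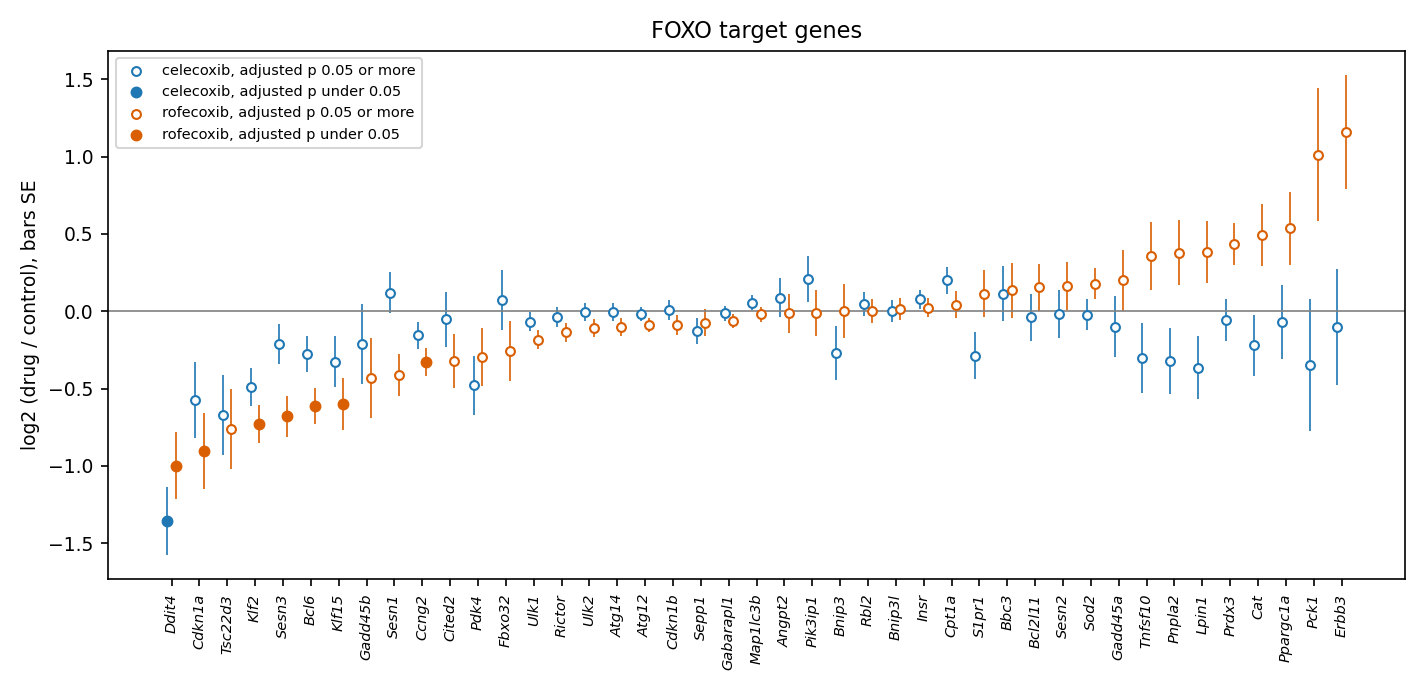
Log2 difference from control of the 43 tested FOXO target genes, ordered by the rofecoxib value, with bars of 1 standard error; blue is celecoxib and orange rofecoxib, and filled circles have an edgeR adjusted p under 0.05. The filled rofecoxib circles (7 genes) are all below 0, the 1 filled celecoxib circle is Ddit4 at -1.36, and most genes lie near 0.

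Upstream of the FOXO factors, 2 of 29 tested genes from the insulin receptor to AKT fell with rofecoxib and none rose. Of all tested genes, 3.06% were called lower with rofecoxib and 6.94% in either direction. Sgk1, an AKT-related kinase that phosphorylates FOXO factors and that glucocorticoids induce, fell by 0.51 (SE 0.10, edgeR adjusted p = 0.00719), with every rofecoxib library below every control. Igf1r, the receptor for insulin-like growth factor 1, fell by 0.33 (SE 0.09, edgeR adjusted p = 0.0273) from 29.8 ± 3.48 to 23.6 ± 2.69 CPM (SD, n = 8 each). With celecoxib edgeR called none of the 29, with 4 at an unadjusted p under 0.05, and DESeq2 called 1. Of 17 other regulators of FOXO factors, 2 fell with rofecoxib, beside 3.06% of all genes tested. Ywhaz, a 14-3-3 protein that holds phosphorylated FOXO in the cytoplasm, fell by 0.21 (SE 0.06, edgeR adjusted p = 0.0333). Crebbp, an acetyltransferase, fell by 0.30 (SE 0.09, edgeR adjusted p = 0.0376). With 1 library left out in turn, Sgk1 was called in all 24 fits, Igf1r in 19, Ywhaz in 17 and Crebbp in 16, and with the fat and muscle covariates none of the insulin pathway genes was called. The other FOXO genes, Foxo4 at 47.1 ± 2.14 CPM in control and Foxo6 at 2.05 ± 0.645 CPM (SD, n = 8 each), had differences between -0.06 and 0.28 in the drug groups, and neither passed.

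The partners of the arrestin-domain proteins showed few calls. Of 10 tested NEDD4 family ligases and adaptors, only Hecw2, a HECT ligase, was called. It rose by 0.67 with rofecoxib (SE 0.19, edgeR adjusted p = 0.0355) from a low 0.904 ± 0.239 CPM in control (SD, n = 8). The call was kept in 15 of 24 fits that left out 1 library. Of all genes tested, 3.88% were called higher with rofecoxib. Of the beta-arrestins, Arrb1 was at 76.3 ± 3.80 CPM in control (SD, n = 8) with differences of 0.17 (SE 0.07) and 0.16 (SE 0.07), and Arrb2 at 10.0 ± 1.47 CPM with -0.01 (SE 0.13) and 0.19 (SE 0.13), and edgeR called neither. Adrb3, the beta-adrenergic receptor of fat cells, was not called either; its differences were -0.51 (SE 0.35) with celecoxib and 0.72 (SE 0.35) with rofecoxib, and it ranged from 11.9 to 129 CPM within control.

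Around Txnip, 2 of 12 thioredoxin system genes rose with rofecoxib, beside 3.88% of all genes tested. Srxn1, which repairs overoxidised peroxiredoxins, rose by 0.24 (SE 0.06, edgeR adjusted p = 0.0257, called in 18 of 24 fits that left out 1 library), and Prdx5, a peroxiredoxin, by 0.25 (SE 0.08, edgeR adjusted p = 0.0453, called in 8 of 24). Of 15 genes of glucose sensing and transport, 2 fell with rofecoxib, beside 3.06% of all genes tested. Mlxip, which encodes MondoA, the glucose-responsive factor that drives Txnip and Arrdc4, fell by 0.39 (SE 0.09, edgeR adjusted p = 0.0153) from 216 ± 18.3 to 165 ± 17.6 CPM (SD, n = 8 each), without overlap between the groups and in all 24 fits that left out 1 library. Prkab2, a subunit of AMP kinase, fell by 0.52 (SE 0.15, edgeR adjusted p = 0.0435, called in 15 of 24). With celecoxib edgeR called no gene of either list, with 2 and 3 at an unadjusted p under 0.05.

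Over 13157 other genes averaging 1 CPM or more, the ones whose within-group pattern was most like that of Arrdc2 over 24 libraries were Tor1aip1 (r = 0.92), Dok1 (0.89), Aff1 (0.89), Lgr4 (0.89) and Lrrc58 (0.88), and Psenen was the most opposed (-0.87). All 5 were below control with rofecoxib, by between -0.73 (Dok1) and -0.19 (Tor1aip1), where Arrdc2 had -1.21. With celecoxib they lay between -0.45 (Dok1) and 0.00 (Lgr4), where Arrdc2 had -0.85. For Txnip they were Wars (0.83), Map3k6 (0.82), Glns-ps1 (0.80), Serpina3f (0.78) and Gm12250 (0.78), with Sdf2 most opposed (-0.86). Those 5 lay between -0.95 (Glns-ps1) and -0.09 (Wars) with celecoxib, where Txnip had -0.42. With rofecoxib they lay on both sides of control, between -0.48 (Map3k6) and 0.15 (Gm12250), where Txnip had -0.27. For Depp1 they were Gpm6a (0.74), Timeless (0.74), Cpm (0.73), Sema6b (0.73) and Rcl1 (0.72), with Stbd1 most opposed (-0.77). Unlike Depp1, which had -0.50, all 5 were above control with rofecoxib, by between 0.10 (Rcl1) and 0.64 (Gpm6a). With celecoxib they lay between -0.32 (Sema6b) and 0.10 (Cpm), where Depp1 had -0.96. A like pattern within groups thus did not always go with a like difference from control. None of these genes is a member of the set of 9.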

How the data were processed

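Every value was computed from the authors' deposited counts, whole numbers of reads for each gene in 24 libraries. The submitters' processing notes name CASAVA 1.8.1, STAR 2.5.1b and the mm9 build; for the counter, the annotation, the strand setting and the closeness of library totals (21668798 to 21700121), the answer is not given in the sources used here. Of 25941 genes, 805 had no read. Groups came from the sample labels.

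The 9 genes, the gene lists and the division into replicates 1 to 4 and 5 to 8 were chosen with earlier results of these data known. Differences were fitted in R 4.3.3 with edgeR 4.0.16 (TMM scaling, filterByExpr leaving 14528 genes, glmQLFit with a mean for each group over all 24 libraries) and tested two-sided, called at a Benjamini-Hochberg adjusted p under 0.05. The common biological coefficient of variation was 19.6%. Intervals are 95% intervals from that fit. The scripts were tested on simulated data.

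Correlations used log2 CPM with a prior count of 2 after subtracting group means, and 100000 resamples. Exon lengths for levels per kilobase came from a GENCODE annotation on a later build, matched by gene identifier. Named genes were all 9, up to 4 called genes per list and drug with the smallest p (or 2 of highest mean where none was called), and the 5 most alike and 1 most opposed in pattern to Arrdc2, Txnip and Depp1. A gene that this rule names is not reported here. Alternatives were other scalings and filters, DESeq2 1.42.0, the replicate number as a block, fat and muscle marker covariates, the replicate sets, the compared groups alone and leaving out each library. Drug against control at other doses, and aortas without interleukin-1β, were not analysed here.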

Additional observations from a re-analysis of the deposited data

Results flagged for a closer look

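Among the 27 combinations of a gene of the set and a diet group, 1 held a library far from the other 7. It was Depp1 in the celecoxib group, where replicate 6 was the highest at 18.8 CPM and its gap to the next library was 0.535 of the group's whole range. Without that library the celecoxib difference of Depp1 was -1.09 instead of -0.96 (log2). Chance gives such a library in about 1 of 20 groups.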

How the results depend on the processing

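Over 630 recomputed differences of the 9 genes from control, none of Arrdc2, Arrdc3, Txnip, Depp1 or, for rofecoxib, Foxo1, Foxo3 and Irs2 changed sign; the 15 sign changes were in Arrdc1, Arrdc4 and, for celecoxib, Foxo1, Foxo3 and Irs2. In Foxo1, the only gene of the set to move by at least 1 SD (of its log2 CPM within the groups compared), the differences were 0.18 (celecoxib) and -0.17 (rofecoxib) in replicates 1 to 4, and -0.55 and -0.58 in replicates 5 to 8. Leaving out 1 library gave -0.998 to -0.76 (celecoxib) and -1.28 to -1.14 (rofecoxib) for Arrdc2.

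The number of genes called depended strongly on the setting, and the cause was not tested. For celecoxib against control, 5 genes were called, against 2 with no filter, 110 with DESeq2, 135 with the fat and muscle covariates, 174 with a term for replicates 1 to 4 and 5 to 8, 9 in replicates 1 to 4, 313 in replicates 5 to 8, 45 with the compared groups alone and 0 to 34 with 1 library left out (edgeR; 1969 genes had an unadjusted p under 0.05 with all libraries). For rofecoxib against control, 1008 were called, against 557, 1812, 79, 1735, 42 and 401 under the first 6 of these settings and 358 (without control replicate 2) to 1945 (without rofecoxib replicate 8). Its 563 higher and 445 lower calls became 1106 and 310 with library size alone. For celecoxib against rofecoxib, 710 were called, against 1419 with DESeq2 and 2073 in replicates 1 to 4. By edgeR it was 0 with no filter (4367 at an unadjusted p under 0.05), with the covariates (749), in replicates 5 to 8 (896) and with the compared groups alone (2816), and 0 to 1997 with 1 library left out. Of the correlated pairs, 7 passed, 4 did so with the means of each replicate set subtracted, and 3 to 10 with 1 library left out.

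The replicate numbers are shared by the groups. Of 24 same-numbered pairs of libraries, 12 had deviations correlated over 0.1, and the 24 values ran from -0.30 to 0.56. Differently numbered pairs were not set beside them, so whether the numbers pair the libraries was not tested. With the replicate block, edgeR called 27 genes for celecoxib, 1187 for rofecoxib and 0 for celecoxib against rofecoxib (3169 at an unadjusted p under 0.05). Library totals are alike, so depth does not order the libraries. Arrdc1, Arrdc4 and Depp1 had the fewest reads of the set and are the least precisely counted.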
